A study of Homo sapiens with 4 samples.

Results

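H/ACA box small nucleolar RNA (snoRNA) genes were compared between HCT116 cells with RALY knocked down and control HCT116 cells. They were chosen by mean count as the genes of GENCODE biotype snoRNA whose symbol starts with SNORA and whose mean count over the 4 libraries was 10 or more. The rule left 70 of the 213 SNORA genes among 58884 genes in the count tables, and all 70 passed the filter on low counts and were tested. The values that chose them were the mean counts, which ran from 10 for SNORA28 to 203 for SNORA61. Of the 70, 3 had a control mean under 10 (SNORA5A, SNORA74A and SNORA28) and 0 a knockdown mean under 10. Of the other 143 SNORA genes, 80 had no count in any library and 3 passed that filter. The 70 entries stood at 68 places on 20 chromosomes.

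HCT116 is a human colorectal carcinoma line, and RALY is an hnRNP, a protein that binds RNA in the nucleus. The 2 knockdown libraries came from cells given lentivirus with a short hairpin RNA against RALY for 72 h. The 2 control libraries are described by the treatment notes as cells given a nonsilencing hairpin, while another label calls them untreated, so what the controls carried is not settled here. No label gives the hairpin sequence or says that the libraries of a group are separate cultures. The p-values therefore reflect spread between libraries alone, and this spread may be technical. Total RNA was sequenced and counted per gene, with 16493967 and 14762755 counts in the knockdown libraries, against 13360007 and 16847520 in the controls.

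H/ACA snoRNAs fold into a pair of hairpins joined by a hinge that holds the H box (ANANNA, where N is any base) and followed by a short tail that holds the ACA box. They form particles with dyskerin, GAR1, NHP2 and NOP10, and most of them guide dyskerin to the uridines of ribosomal RNA that become pseudouridine. In human cells most are encoded within introns of a host gene, from which they are released by splicing, debranching and trimming of the ends. Many hosts encode ribosomal proteins or translation factors, and others, such as the SNHG genes, have no known protein product.

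The DNA of 6 called genes that did not overlap an untranslated region is shown to place these boxes. The bases are those of the hg38 genome, build GRCh38, over the coordinates given by the deposited tables, written 5′ to 3′ on the gene's strand. Capitals mark the ANANNA match nearest the centre of the gene in the middle 1 of 3 equal parts of its length, and the last ACA within the final 10 bases, searched on the gene's strand alone.
SNORA73B: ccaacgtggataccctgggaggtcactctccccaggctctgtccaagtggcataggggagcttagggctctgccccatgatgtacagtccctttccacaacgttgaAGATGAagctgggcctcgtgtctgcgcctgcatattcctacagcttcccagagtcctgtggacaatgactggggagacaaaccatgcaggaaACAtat
SNORA26: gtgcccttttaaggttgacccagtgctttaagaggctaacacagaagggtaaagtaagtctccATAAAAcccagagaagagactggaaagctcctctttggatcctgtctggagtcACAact
SNORA33: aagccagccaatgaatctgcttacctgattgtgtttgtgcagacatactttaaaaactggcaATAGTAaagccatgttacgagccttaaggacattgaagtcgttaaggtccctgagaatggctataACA
SNORA57: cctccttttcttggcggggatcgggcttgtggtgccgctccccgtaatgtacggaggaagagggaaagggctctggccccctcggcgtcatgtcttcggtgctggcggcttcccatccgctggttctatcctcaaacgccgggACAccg
SNORA6: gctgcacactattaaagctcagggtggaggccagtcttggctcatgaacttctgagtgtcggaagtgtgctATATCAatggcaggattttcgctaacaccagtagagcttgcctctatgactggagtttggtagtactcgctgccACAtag
SNORA73A: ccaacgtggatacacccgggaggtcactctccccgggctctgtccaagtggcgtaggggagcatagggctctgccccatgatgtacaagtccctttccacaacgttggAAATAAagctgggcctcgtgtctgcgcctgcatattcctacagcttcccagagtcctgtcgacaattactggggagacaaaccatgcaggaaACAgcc

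SNORA57 held no ANANNA in its middle part and shows the ACA alone. SNORA73A and SNORA73B, the human U17 RNAs needed for processing of the ribosomal RNA precursor, are the longest of these 6 and were 94.6% identical over their best match. Over the 70 genes, 65 (92.9%) held ANANNA in the middle part and 61 (87.1%) held ACA in the final 10 bases. The shares were 89.5% and 79.7% in the 143 SNORA genes under the mean count. In the 313 SNORD genes, which encode the C/D box class, they were 54.6% and 6.07%. A match describes letters only. The 70 genes were 121 to 272 bases long, with a median of 133, and their GC content ran from 32.5% to 72.4%.

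After RALY knockdown, 16 of the 70 H/ACA snoRNA genes were called higher and 0 lower (edgeR quasi-likelihood F test, Benjamini-Hochberg adjusted p under 0.05). That is 22.9% of the genes, against 12.5% of all 19686 genes tested that were called higher and 13.1% called lower. A log2 fold change above 0 was found in 65 of 70 (92.9%), against 51.4% of all genes, and the median was 0.59, against 0.01 over all genes. Both knockdown libraries lay above both controls for 55 genes (78.6%), against 32.3% of all genes, and below both for 3, against 31.3%. The summed level of the 70 genes was 316 and 287 CPM (counts scaled to 1000000 per library, on TMM-scaled totals) in the knockdown libraries, against 221 and 200 CPM in the controls, so the groups did not overlap. At an unadjusted edgeR p under 0.05, 29 of the 70 genes were higher and 0 lower, against 19.3% and 19% of all genes.

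The count depended on the test and on the controls. The DESeq2 Wald test called 0 of the 70 genes, 1 of which received no adjusted p, with a smallest adjusted p of 0.0610, against 9.11% of all genes called higher by that test. Without control 1, edgeR called 0 (smallest adjusted p 0.118), and without control 2 it also called 0 (smallest adjusted p 0.133), while 1.62% and 2.33% of all genes were called higher there. Without knockdown 1 it called 13, against 14.3% of all genes, and without knockdown 2 it called 24, against 12.8%. With no filter on low counts 16 were called, against 8.11% of all genes. None of the 70 was called lower in these fits, against 11.9% of all genes by DESeq2, 3.17% and 2.49% without control 1 and control 2, 16.4% and 13% without knockdown 1 and knockdown 2, and 8.87% with no filter. Each of the 16 genes kept a log2 fold change above 0 with any library left out, between 0.59 and 1.82, and each of the 16 calls was lost when either control was left out.

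RALY itself had 39.6 and 35.1 CPM in the knockdown libraries, against 144 and 123 CPM in the controls. The log2 fold change came to -1.84 (SE 0.127, edgeR adjusted p = 6.59e-06), and 27.9% of the control level remained. The groups did not overlap, and the call held with each library left out. In these bulk samples fewer cells of a type and less RNA per cell cannot be told apart. Where counts level off against transcript length, fold changes can be compressed. Occupancy, the mean count as a percentage of 2 counts per base of the canonical transcript, was used to follow this. It was 3.22% to 78.0% in the 70 genes, with a median of 17.1%. In their hosts the median was 45.8% and the highest value 137%.

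Reads at an H/ACA gene cannot be assigned to the mature RNA or to its host's precursor from these counts. For 43 of the 70 genes every base also lay in an annotated exon of another gene, for 6 some bases did, and for 21 none did. A gene on the opposite strand lies across 10 of the 70, and reads of such pairs cannot be told apart if strand was not used. Pairs of entries at the same place had nearly the same counts. The entries of SNORA17B, of 136 and 130 bases, had 90 and 80 counts and 89 and 79 counts in the knockdown libraries, against 37 and 40 counts for either in the controls. The entries of SNORA16A likewise had 120 and 84 and 118 and 83 counts in the knockdown libraries, against 61 and 73 and 60 and 72 counts in the controls. Reads at the shared bases thus entered both counts, and the 16 called entries stood at 15 places.

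Noncoding hosts held 20 of the genes, in 11 hosts, and 7 of the 20 were called higher (35%, against 12.5% of all genes). The median log2 fold change was 0.80, and 19 of 20 lay above 0. The paired entries of SNORA17B and of SNORA16A all fall in this class, so these counts and the median include the same reads in both entries of a pair. SNORA17B (ENSG00000280496, chromosome 9, the longer entry) had the smallest p. It had 5.61 and 5.38 CPM in the knockdown libraries, against 2.80 and 2.31 CPM in the controls. Both knockdown values were above both controls, and the log2 fold change was 1.11 (SE 0.285, edgeR adjusted p = 0.0139). The shorter entry (ENSG00000276161) had a log2 fold change of 1.09 (SE 0.285, edgeR adjusted p = 0.0150). The whole gene lies within exons of SNHG7, a noncoding snoRNA host. SNHG7 was called higher too, with 83.6 and 86.7 CPM in the knockdown libraries, against 62.5 and 58.8 CPM in the controls. This was a log2 fold change of 0.49 (SE 0.113, edgeR adjusted p = 0.00790), which was not called without control 1 (adjusted p 0.0964) or control 2 (adjusted p 0.126). SNORA17A, the other H/ACA gene of SNHG7, had a log2 fold change of 0.60 and was not called (edgeR adjusted p = 0.133).

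SNHG3 holds both U17 genes. SNORA73B (ENSG00000200087, chr1:28508559-28508762, plus strand) had 6.92 and 5.31 CPM in the knockdown libraries, against 3.41 and 2.55 CPM in the controls. SNORA73A (ENSG00000274266, chr1:28507366-28507571, plus strand) had 6.80 and 6.93 CPM in the knockdown libraries, against 4.32 and 3.12 CPM in the controls. The groups did not overlap in either gene. The log2 fold changes were 1.05 for SNORA73B (SE 0.294, edgeR adjusted p = 0.0206) and 0.89 for SNORA73A (SE 0.273, edgeR adjusted p = 0.0308). Since these genes are nearly identical, how their reads were divided depends on counting settings that no source here gives. SNORA73B shares no base with an annotated exon and SNORA73A lies wholly within one. Without knockdown 1, SNORA73B had an edgeR adjusted p of 0.0512. SNHG3 had 127 and 138 CPM in the knockdown libraries, against 94.3 and 81.0 CPM in the controls. It was called higher, with a log2 fold change of 0.60 (SE 0.118, edgeR adjusted p = 0.00344), but not without control 2 (adjusted p 0.0880).

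The remaining called genes of noncoding hosts lie in DANCR, SNHG9 and SNHG12. SNORA26 (ENSG00000212588, chr4:52713249-52713370, plus strand), in an intron of DANCR, had 2.56 and 2.96 CPM in the knockdown libraries, against 0.985 and 1.27 CPM in the controls. Its log2 fold change was 1.27 (SE 0.360, edgeR adjusted p = 0.0220), and that of DANCR was 0.33 (SE 0.131, edgeR adjusted p = 0.0806). Both knockdown values of SNORA26 were above both controls, and an unnamed gene, ENSG00000286161, lies across it on the opposite strand. SNORA78 (ENSG00000273587), within an exon of SNHG9, had 1.56 and 1.75 CPM in the knockdown libraries, against 0.834 and 0.521 CPM in the controls. The log2 fold change came to 1.31 (SE 0.433, edgeR adjusted p = 0.0427), against 0.11 for SNHG9 (SE 0.226, edgeR adjusted p = 0.774). Without knockdown 2, SNORA78 had an adjusted p of 0.0988. The groups did not overlap, though the values rest on a mean of 17.8 counts.

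The 4 entries of SNHG12 had log2 fold changes from 0.16 to 0.81. SNORA44 (ENSG00000273544), named here after its values were seen, had 6.92 and 6.46 CPM in the knockdown libraries, against 4.40 and 3.30 CPM in the controls. This was a log2 fold change of 0.81 (SE 0.270, edgeR adjusted p = 0.0449, and 0.0623 without knockdown 1). SNORA16A had 0.57 in either entry and was not called (edgeR adjusted p = 0.135). SNORA61, which had the highest mean count of the 70, had 14.0 and 14.1 CPM in the knockdown libraries, against 13.8 and 11.3 CPM in the controls. Its log2 fold change was 0.16 (SE 0.204, edgeR adjusted p = 0.613), with both knockdown values above both controls, and its occupancy of 78.0% was the highest of the 70. SNHG12 was called higher at 0.35 (SE 0.116, edgeR adjusted p = 0.0417), but not without control 1 (adjusted p 0.109) or control 2 (adjusted p 0.326).

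None of the 4 H/ACA genes of SNHG17 was called by edgeR, against 12.5% of all genes called higher. At an unadjusted edgeR p under 0.05, 2 of the 4 were higher, against 19.3% of all genes. Both knockdown libraries lay above both controls for all 4, against 32.3% of all genes. SNORA71A, SNORA71B and SNORA71C lie outside exons and had log2 fold changes of 0.91, 0.85 and 0.62. SNORA71, within an exon, had 0.12. SNHG17 had a log2 fold change of 0.36 (SE 0.126, edgeR adjusted p = 0.0516).

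**Figure D1:**
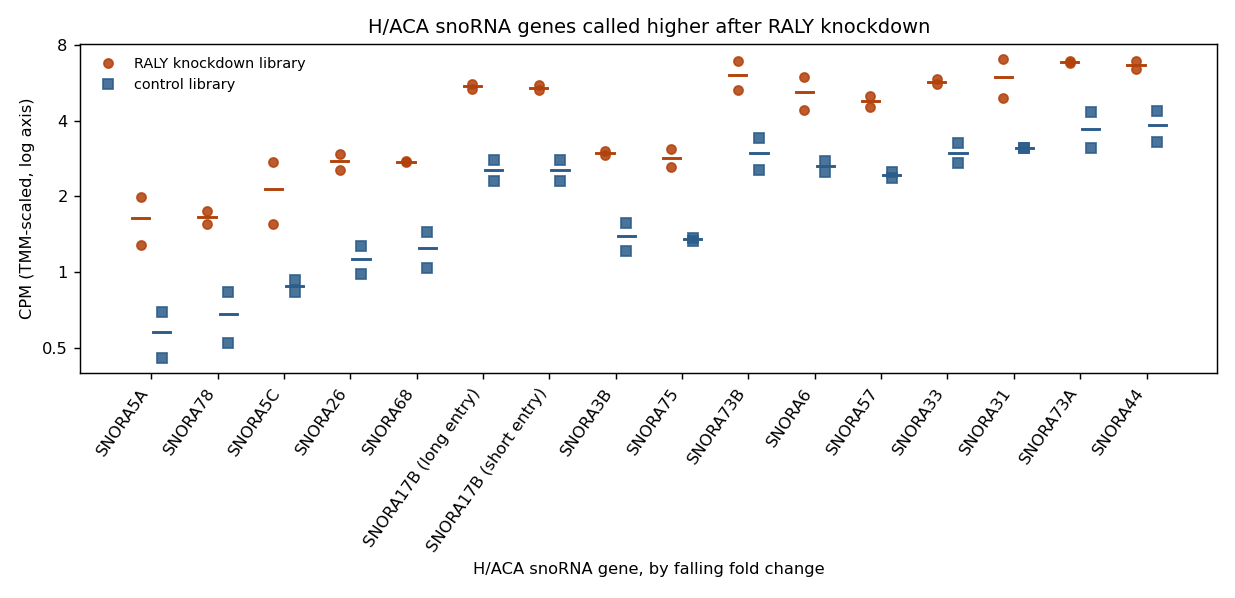
Levels of the 16 H/ACA snoRNA genes called higher, in CPM on TMM-scaled totals (log axis), with 1 circle per RALY knockdown library, 1 square per control library and a line at each group's mean of 2. Every circle lies above both squares of its gene, from SNORA5A (2.0 and 1.28 CPM in the knockdown, 0.455 and 0.694 CPM in the controls) to SNORA44 (6.92 and 6.46 CPM in the knockdown, 4.40 and 3.30 CPM in the controls).

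Ribosomal protein genes held 18 of the genes, in 14 hosts. Of the 18, 4 were called higher (22.2%, against 12.5% of all genes), all had a log2 fold change above 0, and the median was 0.52. SNORA33 (ENSG00000200534, chr6:132817219-132817348, plus strand), in an intron of RPS12, had 5.61 and 5.85 CPM in the knockdown libraries, against 3.26 and 2.72 CPM in the controls. The log2 fold change came to 0.94 (SE 0.277, edgeR adjusted p = 0.0257), without overlap between the groups. RPS12 had 60.6 and 66.1 CPM in the knockdown libraries, against 67.5 and 54.2 CPM in the controls, which overlap. This was a log2 fold change of 0.06 (SE 0.133, edgeR adjusted p = 0.787), at an occupancy of 94.0%.

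SNORA6 (ENSG00000206760, chr3:39408389-39408539, plus strand) lies within an exon annotated for RPSA, a protein of the small ribosomal subunit. It had 5.99 and 4.44 CPM in the knockdown libraries, against 2.50 and 2.78 CPM in the controls. The groups did not overlap, and the log2 fold change was 0.98 (SE 0.296, edgeR adjusted p = 0.0290, and 0.118 without knockdown 1). SNORA62 of the same host had a log2 fold change of 0.53 at an edgeR adjusted p of 0.187, and RPSA itself had 0.21 (SE 0.134, edgeR adjusted p = 0.273).

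SNORA3B (ENSG00000212607), in an intron of RPL27A, had 2.93 and 3.03 CPM in the knockdown libraries, against 1.21 and 1.56 CPM in the controls. Both knockdown values were above both controls, and the log2 fold change was 1.09 (SE 0.342, edgeR adjusted p = 0.0346). RPL27A had 0.23 and was not called (edgeR adjusted p = 0.148). SNORA3A, also in RPL27A, had 0.74 (edgeR adjusted p = 0.157).

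Among the genes of ribosomal protein hosts that were not called, SNORA52 in RPLP2 came closest, with a log2 fold change of 0.82 at an edgeR adjusted p of 0.0584. SNORA21 in RPL23 had 9.42 and 10.9 CPM in the knockdown libraries, against 6.97 and 7.17 CPM in the controls. The groups did not overlap, at a log2 fold change of 0.52 at an edgeR adjusted p of 0.113. SNORA70 in RPL10 had 9.67 and 9.55 CPM in the knockdown libraries, against 8.56 and 6.65 CPM in the controls, and a log2 fold change of 0.34 at an edgeR adjusted p of 0.313. SNORA10 in RPS2 had 9.30 and 9.41 CPM in the knockdown libraries, against 8.79 and 6.88 CPM in the controls, and a log2 fold change of 0.26 at an edgeR adjusted p of 0.452. In both genes the knockdown values were above both controls, and neither was called. SNORA10 is 1 of 4 among the 70, with SNORA7A, SNORA1 and SNORA40, that have a near-identical copy (95% identity over 90% of the length), so its reads are uncertain. Of 27 genes named SNORA70, 2 reached the mean count.

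Translation factor genes held 8 of the genes, in 4 hosts. Of the 8, 0 were called by edgeR or DESeq2, against 12.5% and 9.11% of all genes called higher. An unadjusted edgeR p under 0.05 was found for 4 of the 8, against 19.3% of all genes that were higher at that p. All 8 lay above 0, with a median of 0.68. EIF4A2, a helicase of translation initiation, held 4 of them. SNORA63B had 5.18 and 4.37 CPM in the knockdown libraries, against 3.11 and 2.43 CPM in the controls, and SNORA63 had 7.11 and 5.78 CPM in the knockdown libraries, against 3.79 and 4.05 CPM in the controls. Neither pair of groups overlapped, at log2 fold changes of 0.79 and 0.72 (edgeR adjusted p = 0.0660 and 0.0658). SNORA81 and SNORA4 had 0.65 and 0.32. EIF4A2 had 0.10 (SE 0.133, edgeR adjusted p = 0.619) at an occupancy of 111%. SNORA67 in EIF4A1, another initiation helicase, had 10.7 and 9.41 CPM in the knockdown libraries, against 7.58 and 7.64 CPM in the controls, at a log2 fold change of 0.40 (SE 0.224, edgeR adjusted p = 0.209). SNORA41 in EEF1B2 had the largest value of the class, 1.02 (edgeR adjusted p = 0.0637), against 0.07 for its host.

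The other protein-coding hosts were 15 genes with 22 H/ACA genes, of which 5 were called higher (22.7%, against 12.5% of all genes). Of the 22, 19 lay above 0, with a median of 0.50. TBRG4, which encodes a mitochondrial RNA-binding protein, held 2 of them, SNORA5A and SNORA5C. SNORA5A (ENSG00000206838, chr7:45104349-45104482, minus strand) had 2.0 and 1.28 CPM in the knockdown libraries, against 0.455 and 0.694 CPM in the controls. SNORA5C (ENSG00000201772, chr7:45104906-45105042, minus strand) had 2.74 and 1.55 CPM in the knockdown libraries, against 0.834 and 0.926 CPM in the controls. Neither overlapped between groups, and both lie outside annotated exons. SNORA5A had a mean of 9 counts in the controls, so it reached the mean count of 10 only through the knockdown libraries, and its rank among the 70 carries that choice. The log2 fold changes were 1.48 for SNORA5A (SE 0.459, edgeR adjusted p = 0.0328) and 1.28 for SNORA5C (SE 0.421, edgeR adjusted p = 0.0419). Both calls were lost without knockdown 1, at adjusted p-values of 0.177 and 0.292. TBRG4 had 126 and 114 CPM in the knockdown libraries, against 143 and 126 CPM in the controls, a log2 fold change of -0.16 (SE 0.116, edgeR adjusted p = 0.329). Per 1000 counts of TBRG4, SNORA5A had 15.9 and 11.2 counts in the knockdown libraries, against 3.18 and 5.49 in the controls, and SNORA5C had 21.8 and 13.5 in the knockdown libraries, against 5.84 and 7.32 in the controls. SNORA5B, also in TBRG4, had a mean count of 8.5, under the threshold, with 17 and 7 counts in the knockdown libraries, against 7 and 3 in the controls.

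SNORA57 (ENSG00000206597, chr11:62665422-62665570, plus strand), within an exon annotated for CSKMT and opposite LBHD1, had 4.55 and 5.04 CPM in the knockdown libraries, against 2.50 and 2.37 CPM in the controls. Its log2 fold change was 0.98 (SE 0.289, edgeR adjusted p = 0.0265). CSKMT, a methyltransferase of citrate synthase, had 0.53 (SE 0.235, edgeR adjusted p = 0.115). Per 1000 counts of CSKMT, SNORA57 had 429 and 373 counts in the knockdown libraries, against 344 and 255 in the controls. Reads at the shared bases may have entered both counts, so the value of CSKMT may not be the host's own. SNORA31 (ENSG00000199477) in TPT1 had 4.93 and 7.06 CPM in the knockdown libraries, against 3.11 and 3.12 CPM in the controls. SNORA75 (ENSG00000206885) in NCL, the gene of the nucleolar protein nucleolin, had 2.62 and 3.09 CPM in the knockdown libraries, against 1.36 and 1.33 CPM in the controls. The knockdown values were above the controls in all 3 genes. The log2 fold changes were 0.94 for SNORA31 (SE 0.290, edgeR adjusted p = 0.0320) and 1.08 for SNORA75 (SE 0.344, edgeR adjusted p = 0.0364), against 0.18 for TPT1 and 0.06 for NCL. Without knockdown 2, the adjusted p was 0.143 for SNORA31 and 0.0885 for SNORA75. SNORA53 in SLC25A3 and SNORA55 in PABPC4 had 1.24 and 1.05 and were not called (edgeR adjusted p = 0.0600 and 0.0649).

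TAF1D, a subunit of the initiation factor of RNA polymerase I, held the most H/ACA genes, 6, and none was called by edgeR or DESeq2 or had an unadjusted p under 0.05. Of all genes, 12.5% were called higher by edgeR and 9.11% by DESeq2, and 19.3% were higher at an unadjusted edgeR p under 0.05. Their log2 fold changes were 0.01 for SNORA18, 0.12 for SNORA8, 0.22 for SNORA25, 0.39 for SNORA40, 0.42 for SNORA32 and 0.53 for SNORA1. SNORA40 had 9.48 and 8.74 CPM in the knockdown libraries, against 6.75 and 7.12 CPM in the controls. Both knockdown libraries lay above both controls in 5 of the 6, all but SNORA18, against 32.3% of all genes. TAF1D had 258 and 239 CPM in the knockdown libraries, against 207 and 185 CPM in the controls, a log2 fold change of 0.34 (SE 0.123, edgeR adjusted p = 0.0577) at an occupancy of 104%. All 6 genes lie within its annotated exons, and 3 of the 6 had a larger fold change than TAF1D.

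**Figure D2:**
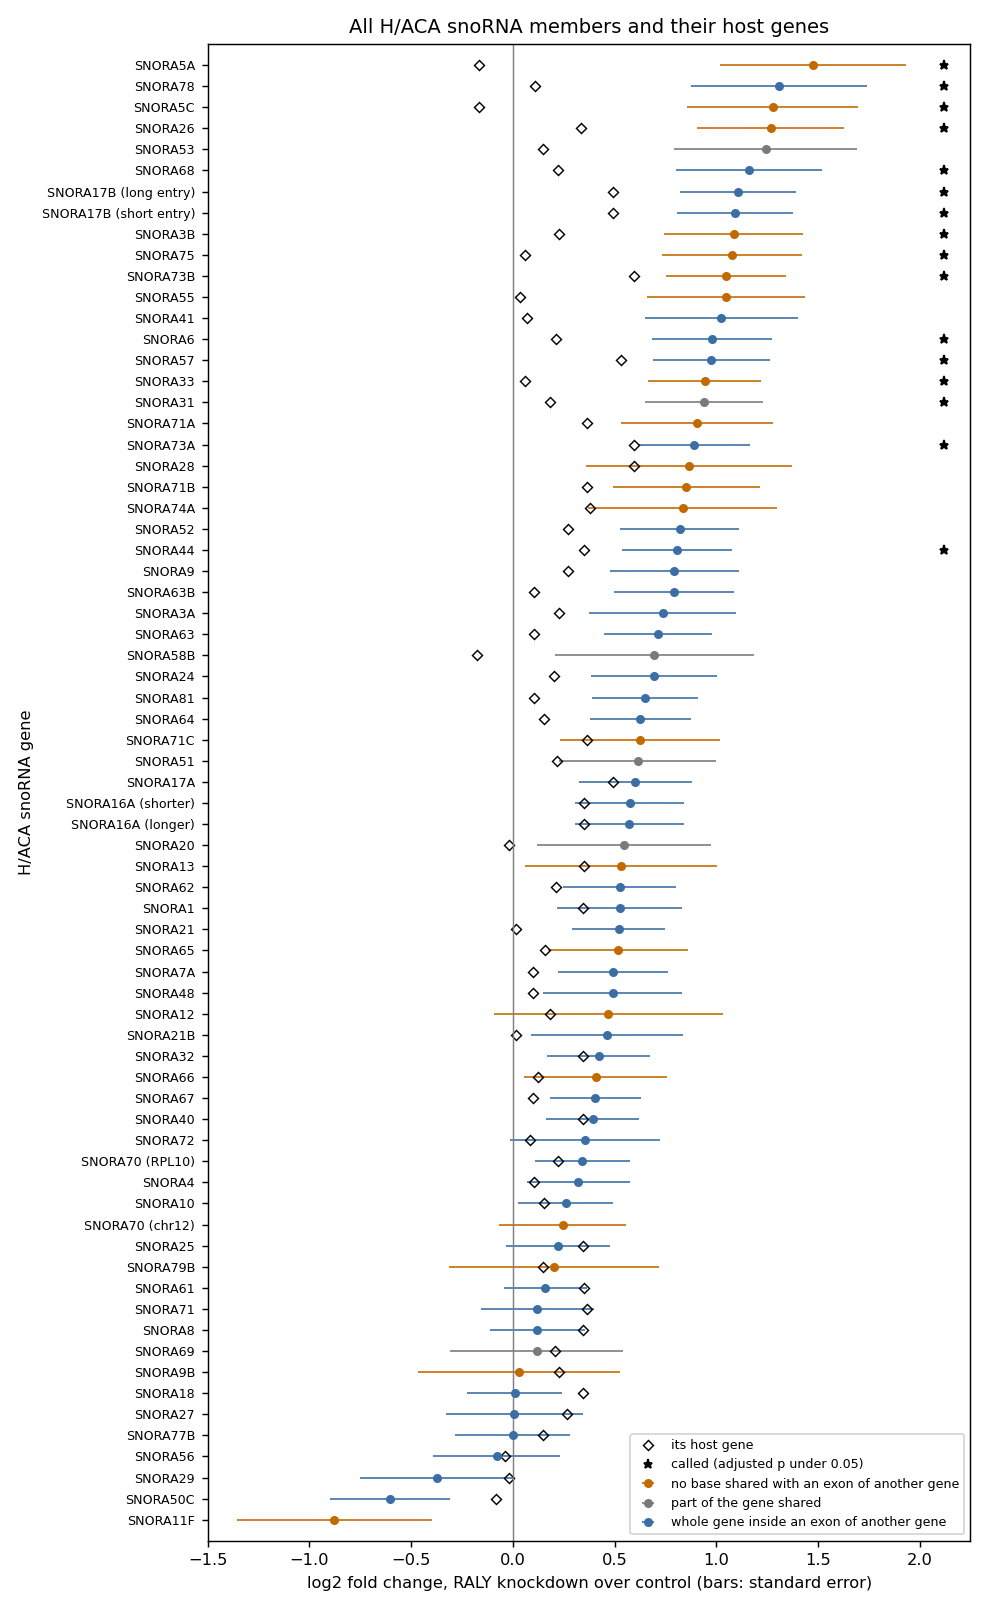
Log2 fold change, RALY knockdown over control, of all 70 H/ACA snoRNA genes (dots, with bars of 1 standard error), coloured by overlap with exons of other genes. Open diamonds are the host genes and stars the 16 called genes, and 65 dots lie right of 0.

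A log2 fold change below 0 was found in 5 of the 70 genes, none of them called, and these genes were named after their values were seen. SNORA11F, with no host on its strand and lying opposite NUDT13, had 0.936 and 0.403 CPM in the knockdown libraries, against 1.29 and 1.21 CPM in the controls. The log2 fold change came to -0.88 (SE 0.480, edgeR adjusted p = 0.203). SNORA50C in SNHG25 had 2.50 and 2.69 CPM in the knockdown libraries, against 3.64 and 4.22 CPM in the controls, a log2 fold change of -0.60 at an edgeR adjusted p of 0.155. In these and in SNORA29 the knockdown values were below both controls. SNORA29 in TCP1, a chaperonin subunit, had -0.37 (edgeR adjusted p = 0.516), while SNORA20 of the same host had 0.55 (edgeR adjusted p = 0.383). SNORA56 in DKC1, the gene of dyskerin, had -0.08 (edgeR adjusted p = 0.887), and SNORA77B was level (edgeR adjusted p = 0.998).

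The host genes had smaller fold changes in the median than the snoRNAs within them. Of the 44 hosts, 5 were called higher (11.4%, near the 12.5% of all genes) and 0 lower by edgeR, and 10 of the 44 were higher and 0 lower at an unadjusted p under 0.05, against 19.3% and 19% of all genes. DESeq2 called 3 higher and 0 lower, against 9.11% and 11.9% of all genes. The called hosts were SNHG3, SNHG7, SNHG12, SNHG4 and EIF5. SNHG4 had a log2 fold change of 0.38 and was not called without control 1, control 2 or knockdown 1 (edgeR adjusted p = 0.0756, 0.320 and 0.0852). EIF5 had 0.59 and was not called without control 2 (edgeR adjusted p = 0.138). The hosts' median log2 fold change was 0.18, and 39 of 44 lay above 0. The snoRNA had the larger fold change in 56 of the 68 genes with a host, by a median of 0.39 on the log2 scale. For SNORA5A the difference was 1.64 (SE 0.473), but that gene reached the mean count of 10 only through the knockdown libraries. The difference was 1.44 for SNORA5C (SE 0.437), 1.02 for SNORA75 (SE 0.371) and 0.88 for SNORA33 (SE 0.308). It was 0.29 for SNORA73A (SE 0.297), no larger than its error. These errors treat the gene and its host as separate measurements, although they share libraries and, where exons overlap, possibly reads. Median occupancy was higher in the hosts than in the snoRNAs, and its part in these differences was not tested. The median difference was 0.45 with noncoding hosts, at a median host occupancy of 38.2%, 0.23 with other protein-coding hosts at 60.9%, 0.42 with ribosomal protein hosts at 90.5% and 0.47 with translation factor hosts at 105%.

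**Figure D3:**
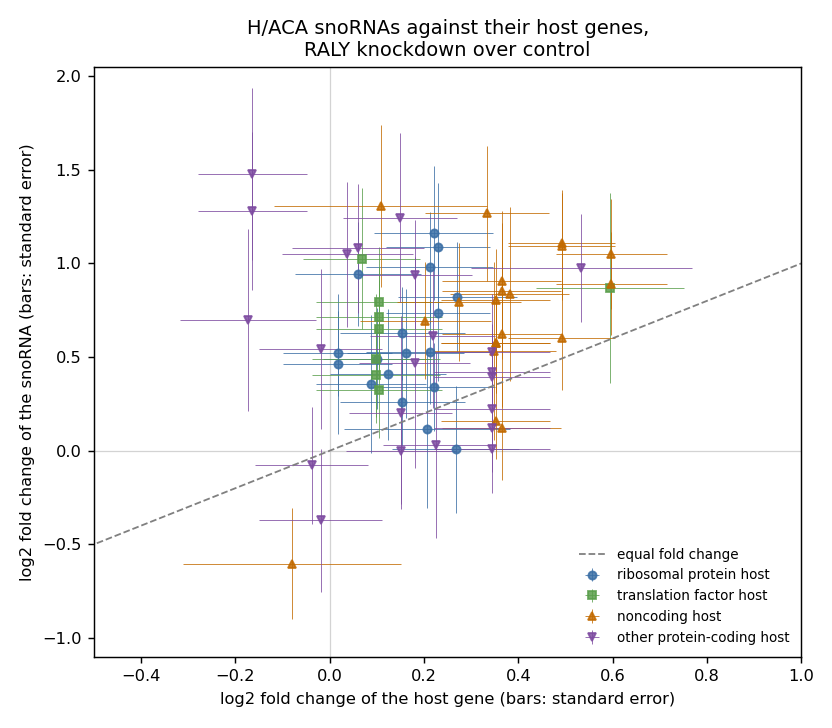
Log2 fold change of each H/ACA snoRNA gene (vertical axis) against that of its host gene (horizontal axis), RALY knockdown over control, for the 68 genes with a host, marked by host class and with bars of 1 standard error. Points above the dashed line of equal fold change are the 56 genes that had a larger fold change than their host.

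Genes outside annotated exons had the larger median fold change. Of the 21 genes sharing no base with an exon, 7 were called higher (33.3%), 20 lay above 0 and the median log2 fold change was 0.85. The 3 genes with a control mean under 10 (SNORA5A, SNORA74A and SNORA28) are all among these 21. They reached the mean count only through the knockdown libraries, so that choice enters the values of this set, and its part in the contrast was not tested. Of the 43 lying wholly in exons, 8 were called higher (18.6%), 39 lay above 0 and the median was 0.53. Of the 6 lying partly in exons, 1 was called higher (16.7%) and the median was 0.65. Of all genes tested, 12.5% were called higher. Counts per base were 0.393 of the host's in the median for the genes outside exons and 0.991 for those wholly inside. Over the 43 genes inside exons the ratio ran from 0.249 for SNORA29 to 7.56 for SNORA57.

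At mean counts of 10 to 25, 3 of 16 genes (18.8%) were called higher, and at 25 to 50 it was 4 of 21 (19.0%). At 50 to 100 it was 9 of 24 (37.5%), and at 100 or more it was 0 of 9. The bins are cut on the mean count that chose the genes. The lowest bin holds SNORA5A, SNORA74A and SNORA28, which reached that count only through the knockdown libraries, and SNORA5A is among its calls. The bin of 50 to 100 holds both entries of SNORA17B, both called, and both of SNORA16A, so the same reads are counted in each pair. Of all genes tested, 12.5% were called higher. The 9 genes with the highest mean counts had a median log2 fold change of 0.34, and 2 of them had an unadjusted edgeR p under 0.05. The genes just inside the threshold were SNORA28, SNORA74A, SNORA9B and SNORA58B, with mean counts of 10, 12.8, 12.8 and 14. Just outside stood SNORA31B, SNORA22, SNORA5B and SNORA22B, with 9.75, 8.75, 8.5 and 8.25. SNORA28 in EIF5 had 15 and 11 counts in the knockdown libraries, against 5 and 9 in the controls. SNORA31B in TPT1 had 15 and 10 counts in the knockdown libraries, against 3 and 11 in the controls.

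The shift was found for both classes of snoRNA and was smaller in other short RNAs, as a description of the medians. The 108 tested C/D box genes with a mean count of 10 or more had a median log2 fold change of 0.52, with 19 called higher (17.6%) and 88.9% above 0. The 70 H/ACA genes had 0.59, 22.9% and 92.9%. The 453 tested genes under 300 bases that are neither snoRNAs nor scaRNAs had a median of 0.08, with 5.08% called higher and 56.5% above 0. The 193 miRNA genes had 0.08 and 4.66%, and the 16 snRNA genes had 0.07 and 12.5%. The 73 misc_RNA genes had 0.15 and 6.85%, with 64.4% above 0. The 5 tested scaRNA genes had a median of 0.23, with quartiles of -0.20 and 0.42 and 0 called, against 12.5% of all genes called higher. Over the 7256 genes of any kind with mean counts of 10 to 203 the median was 0.08, with 11.5% called higher.

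**Figure D4:**
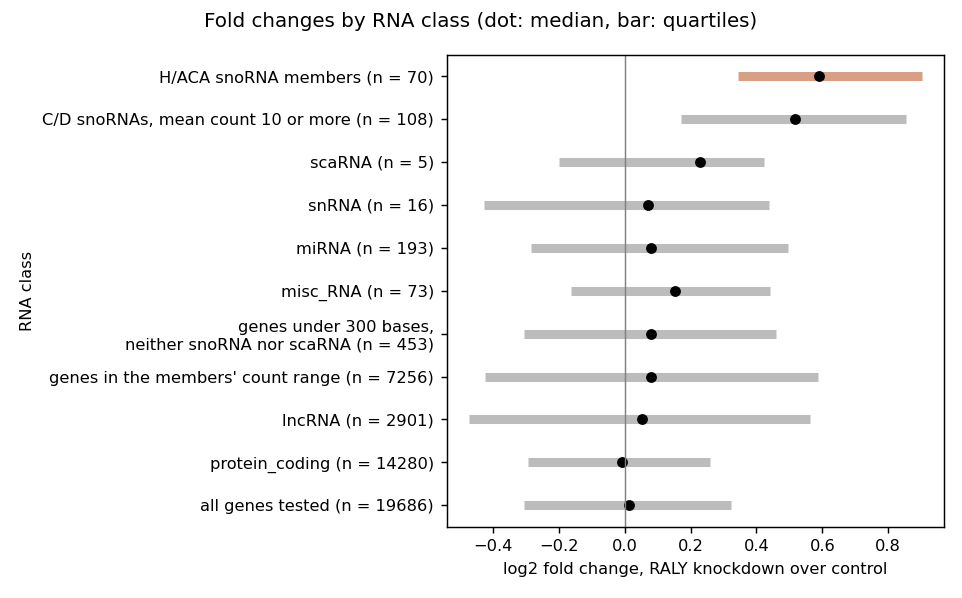
Median (dot) and quartiles (bar) of the log2 fold change, RALY knockdown over control, by RNA class, with the number of tested genes in brackets. The H/ACA snoRNA genes (median 0.59, quartiles 0.35 and 0.90) and the C/D snoRNA genes (median 0.52) stand right of the other classes.

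Genes of the H/ACA particle were not called. Dyskerin, the pseudouridine synthase, is encoded by DKC1, which had 158 ± 3.35 CPM in the knockdown libraries and 162 ± 18.6 CPM in the controls (SD, n = 2 each). This was a log2 fold change of -0.04 at an edgeR adjusted p of 0.854. GAR1 had 53.1 ± 3.82 CPM in the knockdown libraries and 48.7 ± 8.18 CPM in the controls, a log2 fold change of 0.13 at an edgeR adjusted p of 0.555. NHP2 had 47.6 ± 0.546 CPM in the knockdown libraries and 60.2 ± 6.61 CPM in the controls, a log2 fold change of -0.34 at an edgeR adjusted p of 0.0712. NOP10 had 31.1 ± 0.321 CPM in the knockdown libraries and 37.6 ± 6.68 CPM in the controls, a log2 fold change of -0.27 at an edgeR adjusted p of 0.226. Of these 4, edgeR and DESeq2 called 0, and 1 was lower at an unadjusted edgeR p under 0.05.

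Of 7 assembly factors of the particle, such as NAF1 and SHQ1, edgeR and DESeq2 called 0, with 1 higher at an unadjusted edgeR p under 0.05 and a median log2 fold change of 0.13. Of 19 genes for debranching of lariats and trimming of RNA ends, such as DBR1 and the exosome subunits, both called 0, with 1 higher and 2 lower at an unadjusted edgeR p under 0.05 and a median of 0.01. Among 12 stand-alone pseudouridine synthases, which need no guide RNA, 1 was called higher and 1 lower, with a median of 0.02. RPUSD4 had 93.6 ± 7.08 CPM in the knockdown libraries and 70.3 ± 5.47 CPM in the controls, a log2 fold change of 0.41 (SE 0.117, edgeR adjusted p = 0.0219). Without control 1, control 2 or knockdown 1 its adjusted p was 0.120, 0.232 and 0.0593. RPUSD3 had 44.7 ± 4.13 CPM in the knockdown libraries and 74.5 ± 5.84 CPM in the controls, a log2 fold change of -0.73 (SE 0.127, edgeR adjusted p = 0.00160), and 0.0556 as its adjusted p without control 1. Both encode synthases of mitochondrial RNA.

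TERC and the tested scaRNA genes showed no call. TERC, the RNA of telomerase, ends in an H/ACA domain, and many scaRNAs, the guide RNAs of Cajal bodies, are of this class. The list read here was TERC with all genes of biotype scaRNA, not sorted by box class, so not all are H/ACA RNAs. Of its 50 genes, 26 had no count and 6 were tested. Of the 6, 0 were called by edgeR or DESeq2 and 0 had an unadjusted edgeR p under 0.05. TERC had 0.624 and 0.672 CPM in the knockdown libraries, against 0.758 and 0.405 CPM in the controls. The groups overlapped, at a log2 fold change of 0.19 at an edgeR adjusted p of 0.829. SCARNA13 had 2.74 and 3.77 CPM in the knockdown libraries, against 1.89 and 2.89 CPM in the controls, which also overlap (edgeR adjusted p = 0.394).

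Markers of the line and of other cell types were read beside these results. Of 11 colorectal epithelial markers 8 were tested and 1 was called, CDX2, with a log2 fold change of -0.47 and an edgeR adjusted p of 0.0311. CDX1, LGR5 and CEACAM5 were near 0, with mean counts of 1, 1 and 1.5. KRT20 and VIL1 were also under 1 plain CPM in every library, with mean counts of 11 and 12.5, so 5 of the 11 markers of the labelled cell type were very low. The list summed to 612 and 676 plain CPM (on unscaled library totals) in the knockdown libraries, against 687 and 615 in the controls. The 5 leukocyte markers summed to 5.64 and 7.86 plain CPM in the knockdown libraries, against 2.92 and 4.27 in the controls, with PTPRC and CD3E at mean counts of 4.25 and 0.75. The 5 fibroblast markers summed to 21.8 and 21.8 plain CPM in the knockdown libraries, against 15.4 and 16.9 in the controls, nearly all from PDGFRB, with LUM at a mean count of 0.75. The 3 endothelial markers summed to 7.70 and 4.34 plain CPM in the knockdown libraries, against 4.79 and 5.99 in the controls. No marker of the 3 other cell types was called, none was at 0 in all libraries, and the part of these levels in the H/ACA result was not tested.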

How the data were processed

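Gene-level counts from 4 RNA sequencing libraries of HCT116 cells were used, 2 with RALY knockdown and 2 controls, grouped by sample title. The deposited values are raw whole-number counts of reads per gene, with no normalization by the authors, laid out as featureCounts output, per the file headers. The build was GRCh38 and the tools included HISAT2 2.0.4, featureCounts, Subread and SAMtools, per the submitters' processing notes. How strand, multi-mapping reads and duplicates were handled is not stated there.

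Gene biotypes and hosts came from GENCODE release 44, where 58472 of 58884 gene IDs were found. The host was the gene of smallest span with a symbol, other than a small RNA, that contains the H/ACA gene on its strand. Counts were filtered with filterByExpr, scaled with TMM and fitted with edgeR 4.0.16 under R 4.3.3 (robust quasi-likelihood F test, group only), with Benjamini-Hochberg adjustment over 19686 genes and calls at an adjusted p under 0.05. SE is the log2 fold change divided by the square root of F. The fit was run on simulated counts as a check of the code. These were drawn with the same spread set for every gene, so they do not measure how reliable the calls at low counts are. Near-identical copies were found with BLAST+ 2.17.0. Alternatives were DESeq2 1.42.0, other scalings and filters, each library left out, a block for the replicate number, and other member sets. The 2 knockdown libraries differed by a chi-square per degree of freedom of 9.32 and the controls by 5.10, more than counting noise.

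Named were RALY, up to 15 called members by smallest p, the 6 most abundant, those next to the threshold, their hosts, hosts with 3 or more members, the 4 core proteins and called genes of the lists. The members, lists and rules were chosen with earlier results of these data known. Not every gene and sequence chosen by these rules is reported here.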

Additional observations from a re-analysis of the deposited data

How the results depend on the processing

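The count of 16 H/ACA genes called higher was 0 with the DESeq2 Wald test, against 9.11% of all genes. It was 7 among the 21 genes with no exon overlap (33.3%, against 12.5% of all genes), a set that holds all 3 genes with a control mean under 10. It ran from 0 to 24 over the 4 fits with 1 library left out, being 0 without either control. It stayed between 12 and 16 with DESeq2 size factors, plain totals, other count filters, mean counts of at least 5 or 20, and without near-identical copies. The share of all genes called higher was 11.9% with DESeq2 size factors and 10.9% with plain totals. That share was 8.11% with no count filter and 13.2% with a filter of 1 CPM in 2 libraries. The other member sets used the main fit, at 12.5% of all genes. With the replicate number as a block, 27 were called higher, the 16 among them, against 17.9% of all genes. Nothing says that the numbers mark a shared culture, and with 2 numbers the same-numbered libraries' deviations correlated at 0.219 over 19686 genes. The count called lower was 0 in every fit, against 13.1% of all genes in the main fit. The median log2 fold change of 0.59 was 0.85 with no exon overlap and ran from 0.46 to 0.77 with 1 library left out, the highest without knockdown 2.

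Among named genes, the sign turned where fold changes were near 0. SNORA9B had 0.03, against -0.00188 with DESeq2 and -0.56 to 0.45 with 1 library left out. RPL23 had 0.02, against -0.00511 with plain totals, -0.00851 with DESeq2, -0.0104 without a count filter and -0.083 to 0.069 with 1 library left out. With 1 library left out, EIF4A2 ran from -0.040 to 0.21, RPS12 from -0.11 to 0.19, NCL from -0.11 to 0.19, SNHG9 from -0.064 to 0.24, EIF4A1 from -0.076 to 0.24, RPS2 from -0.033 to 0.31, DKC1 from -0.17 to 0.045 and GAR1 from -0.050 to 0.27. The cause was not tested. Where a fit left 1 library in a group, that library was assumed to vary like the other group. The mean counts ran from 10 to 203 per gene, and the part of depth in the calls was not tested. Gene-level counts cannot separate mature snoRNA from host reads.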
